A study of Rattus norvegicus with 9 samples.

Results

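The tags described here are small RNA sequences that the depositors assigned to a named rat miRNA with the ending "hairpin" and a score of 1, in contrast to the tags assigned to the same names with the ending "mature" and a score of 0. A tag is a distinct read sequence with its number of reads in 1 library. Taking every such tag from the 9 libraries gave 6118 of the 660425 tag entries, which are 2769 distinct sequences under 247 miRNA names and hold 717102 reads. The mature ending covered 1645 entries. The score column is headed as a mismatch number, and the working name of the class was tags with 1 mismatch. That name did not describe most of the reads: measured against the RefSeq hairpins, 57.1% ± 2.72 (SD, n = 9) of the hairpin reads had no mismatch at all, and most reads were the mature miRNA made 1 base longer or shorter at its 3′ end. By distinct sequences it fitted better, since 238 had no mismatch, while 555 had 1 in the seed, 705 at another inner base, 267 at the last base and 61 at the first. They are therefore called hairpin tags below, after their assignment.

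A miRNA is cut out of a hairpin precursor by Drosha in the nucleus and Dicer in the cytoplasm, and small shifts of either cut give length variants known as isomiRs. Terminal nucleotidyltransferases can also add uridine or adenosine to the 3′ end, so an added base is either templated (the next base of the precursor) or not templated. Adenosine deaminases convert A to I inside some miRNAs, which is read as an A-to-G change, and a change in the seed, the bases near the 5′ end that pair with target mRNAs, can alter the targets.

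The libraries were made from RNA of exosomes, small secreted vesicles, from rat primary peritoneal macrophages taken by lavage from untreated animals and kept in medium with 10% fetal bovine serum. Control cells received 0.1% DMSO for 24 h, LPS cells received 100 ng/ml lipopolysaccharide, a bacterial activator of macrophages, for 6 h, and LPS+AS-IV cells received 150 µM astragaloside IV, a plant saponin, for 24 h before the same LPS treatment. Both LPS and astragaloside IV were dissolved in DMSO, and the final DMSO level is given for the control culture alone. Each group had 3 libraries. Whether they stem from different animals or cultures is not stated in the labels, and p-values therefore reflect the spread among these libraries alone.

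Between 3484099 and 9527483 reads per library were assigned to any small RNA, and 11160 to 417820 of them were hairpin reads. LPS+AS-IV library 3 stood apart, with 6.24% of its assigned reads in hairpin tags against 0.117% to 1.45% in the other libraries, and it held 58.3% of all hairpin reads. Class shares are therefore given as means of the 9 within-library percentages. Read totals over all libraries, and the values said to be pooled, weigh that library most. Of all macrophage and myeloid miRNAs listed as markers, 6 of 6 had hairpin tags, with 3.13% to 15.1% of hairpin reads per library, beside 5.66% to 13.8% for the 3 erythroid miRNAs and 4.69% to 6.93% for the 2 lymphocyte miRNAs. Most of the myeloid share came from miR-21-5p and miR-146a-5p, with means of 6.13% and 3.32% of hairpin reads. The means of miR-155-5p and miR-223-3p were 0.464% and 0.296%. miR-142-3p had 95 hairpin reads in 2 libraries, and miR-142-5p had 6 in 4 libraries. Likewise miR-451-5p made up most of the erythroid share, while miR-144-3p had 8 hairpin reads in 2 libraries. In the lymphocyte share miR-181a-5p led with a mean of 4.75%, beside 1.14% for miR-150-5p. The 1 endothelial miRNA held 0.0328% to 0.841%, miR-122-5p of liver and serum 0.000718% to 0.762%, and the 5 epithelial and mesothelial miRNAs at most 0.412%. The part of other cells or of serum in these values was not tested. Repeat libraries of a group differed far beyond sampling noise in their hairpin tag counts (chi-square per degree of freedom 39.3 to 501 over the 9 pairs), so none was counted as a duplicate.

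The following tags carry the main findings. They are written 5′ to 3′ as DNA, as in the deposited tables, with T for U, and capitals mark the base that was added to, or differs from, the mature miRNA in RefSeq (GRCr8). The first 3 are the most abundant tags with a base added. The next 3 lack the last mature base, the next 2 have the last base replaced, and the final 2 have an inner base replaced.
miR-92a-3p with T added: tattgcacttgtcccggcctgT
miR-21-5p with C added: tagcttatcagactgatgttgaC
miR-24-3p with T added: tggctcagttcagcaggaacagT
miR-451-5p without its last T: aaaccgttaccattactgagt
let-7b-5p without its last T: tgaggtagtaggttgtgtggt
miR-423-5p without its last T: tgaggggcagagagcgagacttt
miR-181a-5p with T23A: aacattcaacgctgtcggtgagA
miR-103-3p with A23T: agcagcattgtacagggctatgT
miR-532-5p with T20C: catgccttgagtgtaggacCgt
miR-193a-5p with A16G: tgggtctttgcgggcGagatga
Positions count from 1 at the 5′ end, the RefSeq base stands first and the tag's base last.

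Hairpin tags made up a near constant share of all reads assigned to a miRNA (hairpin plus mature). The share was 45.9%, 44.6% and 42.3% in the Control libraries, 42.4%, 43.5% and 44.2% in the LPS libraries, and 42.0%, 43.9% and 43.3% in the LPS+AS-IV libraries. The 3 ranges overlap, although the number of hairpin reads behind them differed between 11160 and 417820. Wilson 95% intervals were narrow even in the shallowest library (41.4% to 42.6% in LPS+AS-IV library 1), and they cover counting error only, since reads without molecular identifiers are not independent molecules. Each miRNA read in a mature tag was thus accompanied by 0.773 ± 0.0398 hairpin reads (SD, n = 9).

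By relation to the RefSeq mature sequence, tags 1 base longer at the 3′ end led, with 51.9% ± 3.84 of hairpin reads (SD, n = 9; 45.5% to 58.1%; 183 distinct tags). Tags 1 base shorter followed with 19.5% ± 3.72 (82 distinct tags). Tags 2 bases shorter held 3.46% ± 1.05 and tags 2 bases longer 1.08% ± 0.450. A replaced last base accounted for 3.48% ± 1.00, and a replaced inner base for 2.40% ± 0.515. A shifted 5′ end, which moves the seed, accounted for 1.54% ± 0.676. Tags on the opposite strand of the named miRNA held 7.02% ± 1.48, and 8.85% ± 1.26 had names without a RefSeq mature sequence. Pooled over all libraries the 1-base extension held 48.1% of reads, and without LPS+AS-IV library 3 it held 51.7%.

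**Figure D1:**
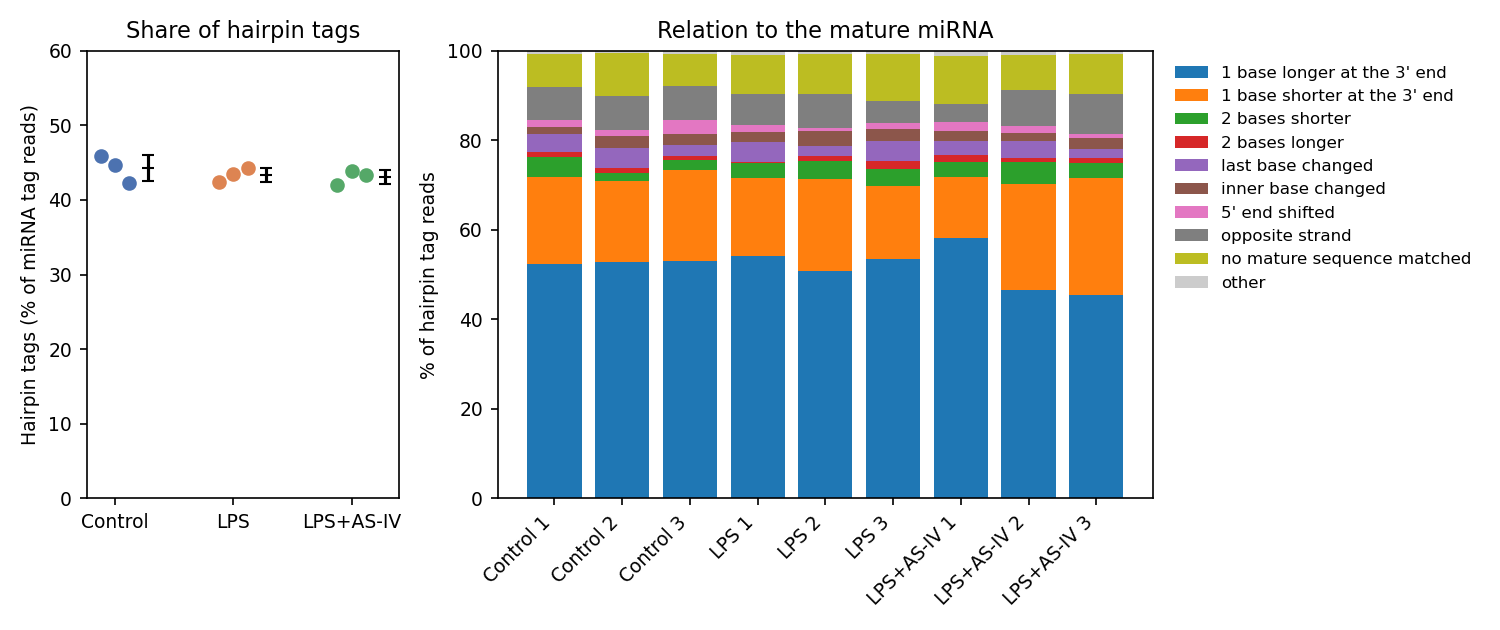
Left: hairpin reads as a percentage of hairpin plus mature reads in each library (points), with the group mean and SD beside them. Right: hairpin reads of each library split by their relation to the RefSeq mature sequence, as stacked percentages. The left points lie between 42.0% and 45.9%, and tags 1 base longer or 1 base shorter at the 3′ end are the 2 largest blocks in every library.

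The deposited mature tags had another make-up. Tags equal to the RefSeq mature sequence held 62.5% ± 4.52 of mature reads, none of those reads had a replaced inner or last base, and 10.9% ± 2.78 were 3 or more bases longer at the 3′ end. Tags 1 base longer held 0.840% ± 0.453 of mature reads and tags 1 base shorter 3.17% ± 0.514. The lengths of the 2 classes were close. Hairpin reads averaged 22.1 to 22.5 nt per library and mature reads 22.3 to 22.7 nt, and hairpin tags of 21, 22 and 23 nt held 23.4% ± 4.18, 28.8% ± 4.51 and 34.9% ± 5.61 of hairpin reads.

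Where a tag was matched to the RefSeq mature sequence of its own deposited name, the base at the changed 3′ end separated hairpin from mature tags in all 9 libraries. Among hairpin tags with 1 added base, U was added in 269356 reads (102 tags), A in 45969 reads (63 tags) and C in 29783 reads (18 tags). G was added in 0 of 345108 reads. Counting reads as independent, which they are not, this allows a share of up to 0.000869%. Among mature tags with 1 added base, all 10725 reads (45 tags) had G. The same held for the base that was missing. Hairpin tags 1 base shorter had lost U (128193 reads), C (16587 reads) or A (22499 reads), and G in 0 of 167279 reads (up to 0.00179% by the same count). The 33325 reads of mature tags 1 base shorter had all lost G. In the mean over libraries U was 75.3% ± 4.02 of the added bases in hairpin tags, A 13.1% ± 2.27 and C 11.6% ± 3.36 (SD, n = 9). Single tags weighed heavily in these values. The miR-21-5p tag held 26734 of the 29783 reads with C, and the miR-92a-3p tag 119438 of the 269356 with U. In both tags the added base is templated.

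**Figure D2:**
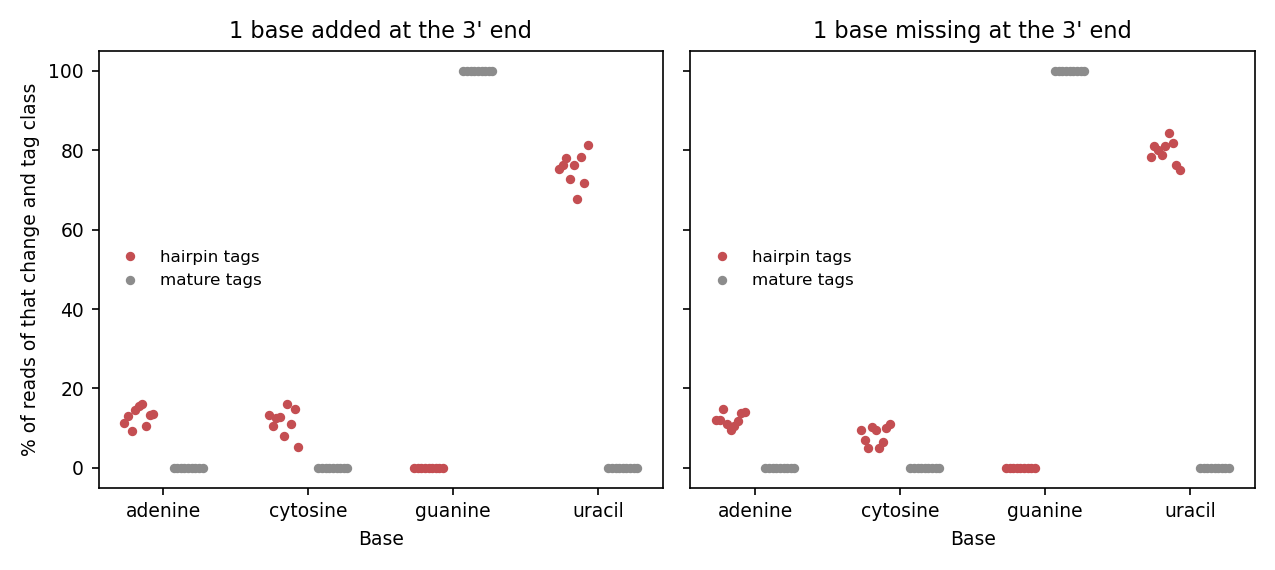
Percentage of reads by the identity of the single base added (left) or missing (right) at the 3′ end, for hairpin and mature tags, with 1 point per library. Mature tags sit at 100% guanine and hairpin tags at 0% guanine in all 9 libraries, and uracil leads in hairpin tags.

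Most of the added bases were the next base of the precursor. Where RefSeq gives the hairpin, added U was templated in 184212 reads and not templated in 62020, added C was templated in 29609 and not in 167, and added A was split evenly, 19267 against 19194 reads. The share not templated was 24.7% ± 4.33 (SD, n = 9; 20.6% to 34.7%). Of those reads, 74.9% ± 4.58 ended in U and 24.6% ± 4.86 in A. LPS library 2 had the highest share not templated (34.7%), and the other 8 libraries lay between 20.6% and 27.2%. Its reads not templated included 2687 and 656 of the miR-652-3p tags with U and A added. In some other libraries these tags stood under piRNA and were not counted here.

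The class also ended sharply with the number of bases. Over all tags of the files that extend a RefSeq mature sequence, 92.0% of the reads with 1 added base other than G were assigned to hairpins (pooled, as are the next shares). In this wider match to any RefSeq miRNA, 5.49% of them were mature, all 21368 reads being 1 tag named mature miR-3557-5p, and 2.53% were piRNA. Without LPS+AS-IV library 3 the hairpin share was 90.9%. Of the reads with 2 added bases of which 1 was G, 98.9% were hairpin, but with 2 added bases neither of which was G, 96.6% were assigned to Rfam families, a database of RNA families, and 3.38% to hairpins. With 3 added bases other than G, 98.3% carried the mature assignment, and with 4 such bases 99.96% did. Shortening showed the same boundary, with 99.9% of reads that lost 1 base other than G in hairpin tags and 144 reads in mature tags. Of those that lost 2 such bases 75.8% were in Rfam families and 17.3% in hairpin tags, or 62.1% and 30.6% without LPS+AS-IV library 3. The hairpin tags are therefore only some of the 3′ length variants in these libraries.

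**Figure D3:**
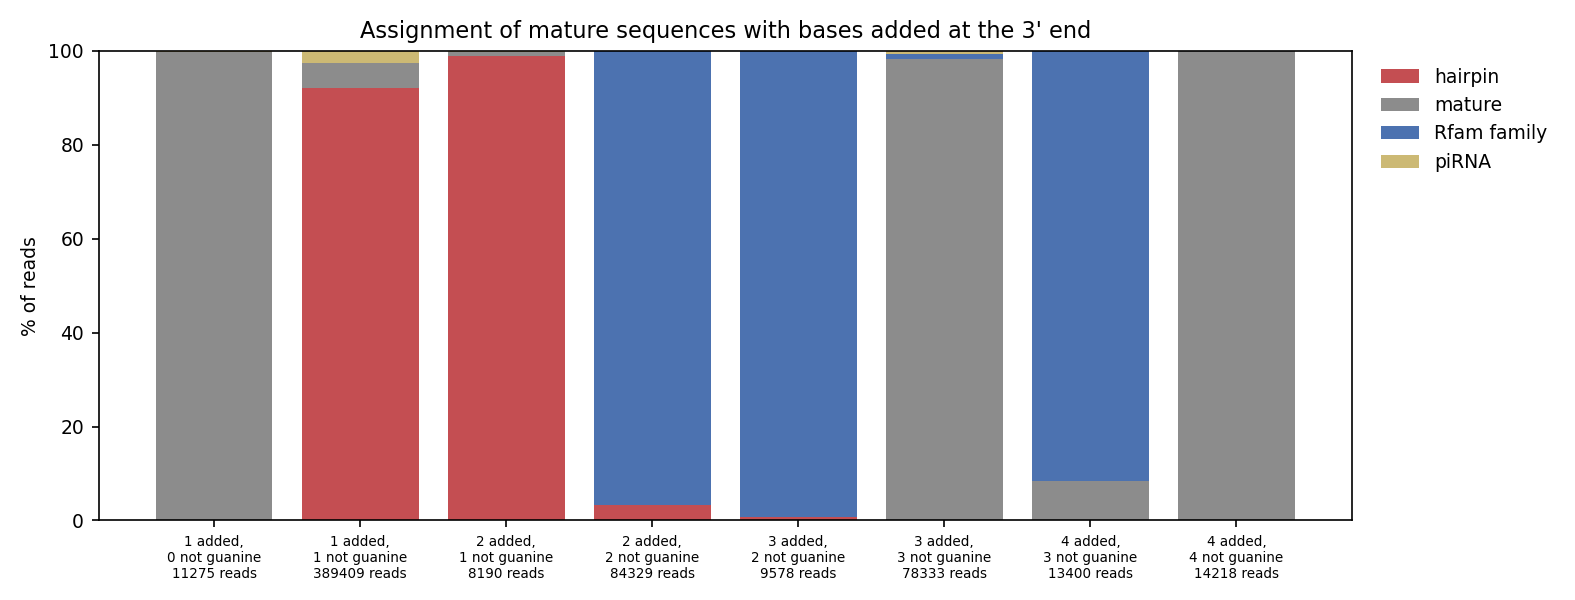
Assignment of reads that extend a RefSeq mature sequence, by the number of bases added and how many of them were not guanine (categories with at least 1000 reads, reads under each bar), as stacked percentages over the 9 libraries. Reads with 1 base other than guanine are mostly hairpin, with 2 mostly Rfam.

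Against the RefSeq hairpins, which were found for 203 of the 247 names, mismatches clustered at the 3′ end. Reads with a mismatch only at the last base made up 15.4% ± 1.94 of hairpin reads (SD, n = 9), those with a mismatch in bases 2 to 8 made up 0.556% ± 0.163, other inner bases 1.87% ± 0.437, and the first base 0.244% ± 0.304. The last base of the mismatched tags was U in 70.1% ± 4.31 of reads, A in 27.2% ± 4.33, G in 1.83% ± 1.36 and C in 0.870% ± 0.746. By distinct tags the picture was different: 555 distinct tags had a seed mismatch and 705 another inner mismatch, against 267 with a last-base mismatch, and the median inner tag had 1 read per library.

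**Figure D4:**
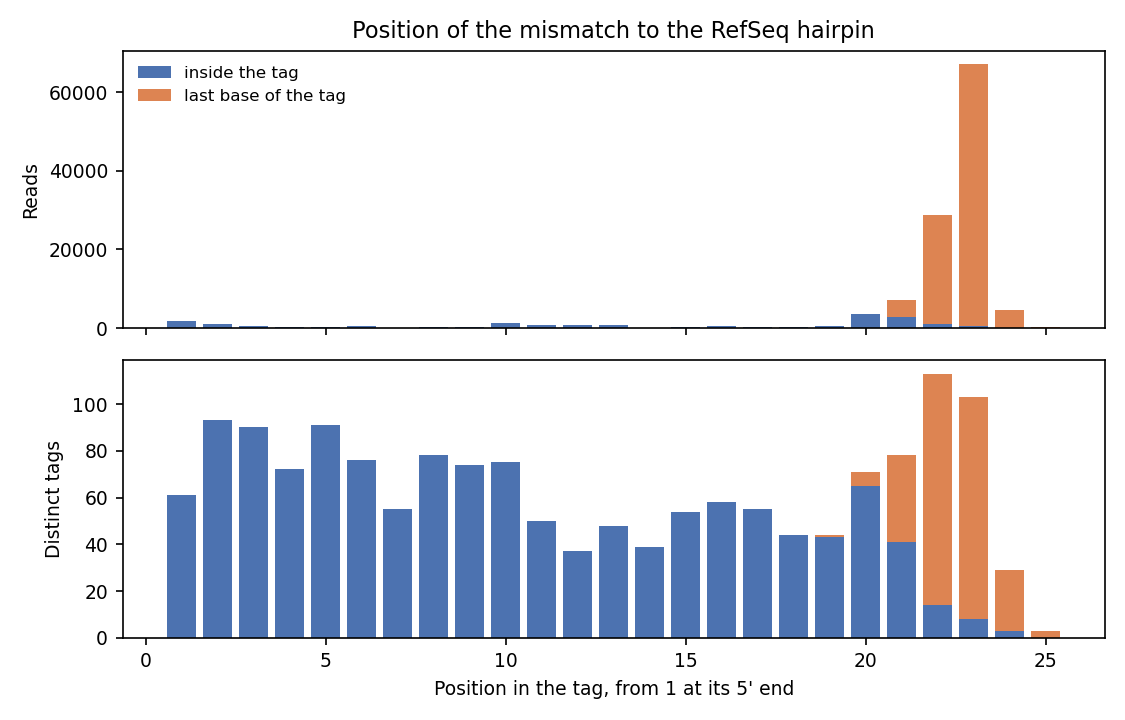
Reads (top) and distinct tags (bottom) by the position of the single mismatch to the RefSeq hairpin, from 1 at the 5′ end of the tag, pooled over 9 libraries, with orange for tags whose last base is the mismatch. Reads pile up at positions 22 and 23 (28691 and 67135 reads), while distinct tags are spread along the whole tag.

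A replaced last base was found repeatedly in abundant miRNAs. The miR-181a-5p tag with T23A shown above, from a miRNA known for its role in lymphocytes, was in 9 of 9 libraries with 3378 reads, or 2.74 per 100 reads of the exact mature tag (pooled, as are the other values per 100). The miR-103-3p tag with A23T, from a miRNA linked to metabolic control, had 1814 reads beside 1929 of the mature tag. miR-191a-5p with G23T had 2149 reads in 9 libraries, 9.15 per 100 mature reads, and miR-27a-3p with C21T had 1599 reads, 51.9 per 100.

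Inner changes were rarer and uneven. The miR-532-5p tag with T20C held 2040 reads in 8 libraries, from 13 to 997 reads where present, while the exact RefSeq mature tag had none. Likewise the miR-193a-5p tag with A16G had 88 reads in Control library 3, 217 in LPS library 3 and 4 in LPS+AS-IV library 1, again with no exact mature tag. miR-155-5p, induced by LPS in macrophages, had a T12C tag with 241 reads in 6 libraries beside 695 reads of the mature tag. Whether these tags are changed rat miRNAs or sequences from another source, such as the serum in the medium, was not tested. In miR-181a-5p the C10T tag had 876 reads in 5 libraries. Of the 555 distinct tags with a seed mismatch, 316 were seen in 1 library and 254 as a single read, and the most abundant, let-7i-5p with G2T, had all its 508 reads in LPS+AS-IV library 3.

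A-to-G changes, the form that A-to-I editing takes in reads, were 3.32% to 40.4% of the inner mismatches per library. LPS library 3 was high with 40.4% (569 of 1409 inner reads), and the other 8 lay between 3.32% and 18.9%. In that library 217 of the A-to-G reads were the miR-193a-5p tag and 227 were a miR-146a-5p tag with GT added at its 3′ end, which meets an A of the hairpin with its G. Without tags that are longer at the 3′ end, the library had 29.0%. Whether any of these changes arose by editing was not tested. Of 14 miRNAs listed as known to be edited, 8 had hairpin tags, with 3380 reads in all. They held 2 A-to-G reads, 1 in miR-379-5p at position 10 and 1 in miR-99b-5p at position 2. miR-151-5p and miR-151-3p, with 1735 and 81 of the reads, had no RefSeq mature sequence. Changes in these could not be placed, so their lack of A-to-G reads says nothing about editing.

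Tags on the opposite strand of the miRNA they were named for were confined to 19 names with 58198 reads, and for 82.6% of these reads the sequence lay within 1 base of another miRNA in its sense direction. The names miR-3596c, miR-3557-5p, miR-3596d and miR-3596a led them. The miR-3596c tag is let-7a-5p without its last base, and it had 25657 reads, between 186 in LPS+AS-IV library 1 and 15059 in LPS+AS-IV library 3. The main miR-3596d tag is let-7f-5p without its last base (6956 reads). Both are shown here with the let-7a-5p sequence, seed bases 2 to 8 in capitals, for comparison.
let-7a-5p: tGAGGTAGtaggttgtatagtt
hairpin tag named miR-3596c: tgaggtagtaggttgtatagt
hairpin tag named miR-3596d: tgaggtagtagattgtatagt
For miR-3557-5p, 7697 of 12843 opposite-strand reads lay within 1 base of miR-378a-3p, and for miR-3588, 849 of 1376 lay within 1 base of miR-125b-5p.

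The hairpin reads were concentrated in few miRNAs. The 10 most abundant names held 59.6% ± 2.31 of hairpin reads (SD, n = 9), and the 88 distinct tags found in all 9 libraries held 78.4% ± 2.83, whereas 1548 of the 2769 tags were seen in 1 library. First came miR-92a-3p, a member of the miR-17/92 cluster, with 16.6% ± 1.73 of hairpin reads. Next were miR-451-5p, a red blood cell miRNA that matures without Dicer, with 9.82% ± 2.45, miR-21-5p, widely induced in inflammation, with 6.13% ± 2.04, and let-7b-5p with 5.46% ± 0.601. miR-181a-5p (4.75%), miR-24-3p (4.29%), miR-423-3p (3.68%), miR-3596c (3.34%), miR-146a-5p (3.32%), a feedback inhibitor of LPS signalling, and miR-652-3p (2.20%) followed.

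The single most abundant hairpin tag was miR-92a-3p with the templated T added. Control libraries held 5001, 4156 and 9577 reads of it, LPS libraries 3355, 8630 and 7584, and LPS+AS-IV libraries 1541, 7350 and 72244, or 13.6% to 17.9% of each library's hairpin reads. The RefSeq mature sequence of miR-92a-3p itself had 1318 reads in all and at most 2 in each Control library. Its main tag under the mature assignment was 3 bases longer, with 36640 reads.
miR-92a-3p, RefSeq mature: tATTGCACttgtcccggcctg
main tag assigned to mature miR-92a-3p, added bases in capitals: tattgcacttgtcccggcctgTAA
The hairpin to mature ratio of miR-92a-3p (median 1.54) thus set the T-added tag mainly against tags longer than it.

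For miR-451-5p the lost T gave the main hairpin tag, with reads of 2319, 1505 and 4348 (Control), 1367, 3598 and 2016 (LPS), and 423, 4031 and 39123 (LPS+AS-IV). It held 68.1% ± 13.1 of the hairpin reads of miR-451-5p (SD, n = 9), from 51.9% to 83.7%. Its ratio to mature reads was also the steadiest of the highest 10, between 1.55 and 2.98 in the 9 libraries.

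The ratio of hairpin to mature reads could be given for 51 miRNAs with at least 10 reads of each class in at least 6 libraries. The median was 0.725, and 18 of the 51 had a median ratio above 1. Highest was miR-21-5p with a median ratio of 17.6. The Control libraries gave 21.6, 17.2 and 16.4, the LPS libraries 268, 492 and 14.6, and the LPS+AS-IV libraries 32.6, 9.09 and 17.6. The 2 highest values rested on 5 and 4 mature reads, so they are poorly determined. The tag with C added held 93.2% ± 2.75 of the hairpin reads of miR-21-5p (SD, n = 9), and its C is templated. Its reads numbered 2372, 1348 and 3539 (Control), 1262, 1727 and 4221 (LPS), and 656, 3559 and 8050 (LPS+AS-IV), while the exact mature tag had 3 to 493.

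The other miRNAs among the highest 10 differed in the kind of tag that led in pooled reads. miR-423-5p (median ratio 5.63) and miR-27a-3p (3.97) were led by the tag without the last base. It held 92.2% ± 10.9 of the hairpin reads of miR-423-5p per library (SD, n = 9), but 0.531% to 78.6% of those of miR-27a-3p. miR-139-5p (5.14), miR-26b-5p (4.14), miR-652-3p (3.37) and miR-7a-5p (2.43) were led by an added U, and miR-103-3p (1.99) by a lost A, which held 0.654% to 83.1% per library. The added-U tag of miR-652-3p held 0% to 82.9% per library, and it stood under piRNA where it had 0%. Some single ratios rested on 1 mature read. These were miR-139-5p in LPS libraries 2 and 3 (58 and 219), miR-26b-5p in Control library 1 (206) and miR-27a-3p in LPS library 2 (377). miR-3596d (9.94) had opposite-strand tags for 99.9% of its pooled hairpin reads. Lowest of the 51 by name was let-7a-5p with a ratio of 0.0734 over 6 libraries. Its shortened tag stands under miR-3596c, and in the Control libraries no mature read carries its name. With the names miR-3596a and miR-3596c added to both classes, the median over 9 libraries was 0.487. Grouped by the last base of the RefSeq mature sequence, where one was found on the sense strand, the median ratio was 1.26 for the 10 miRNAs ending in G, 0.870 for 5 ending in A, 0.798 for 5 ending in C and 0.525 for 20 ending in U.

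**Figure D5:**
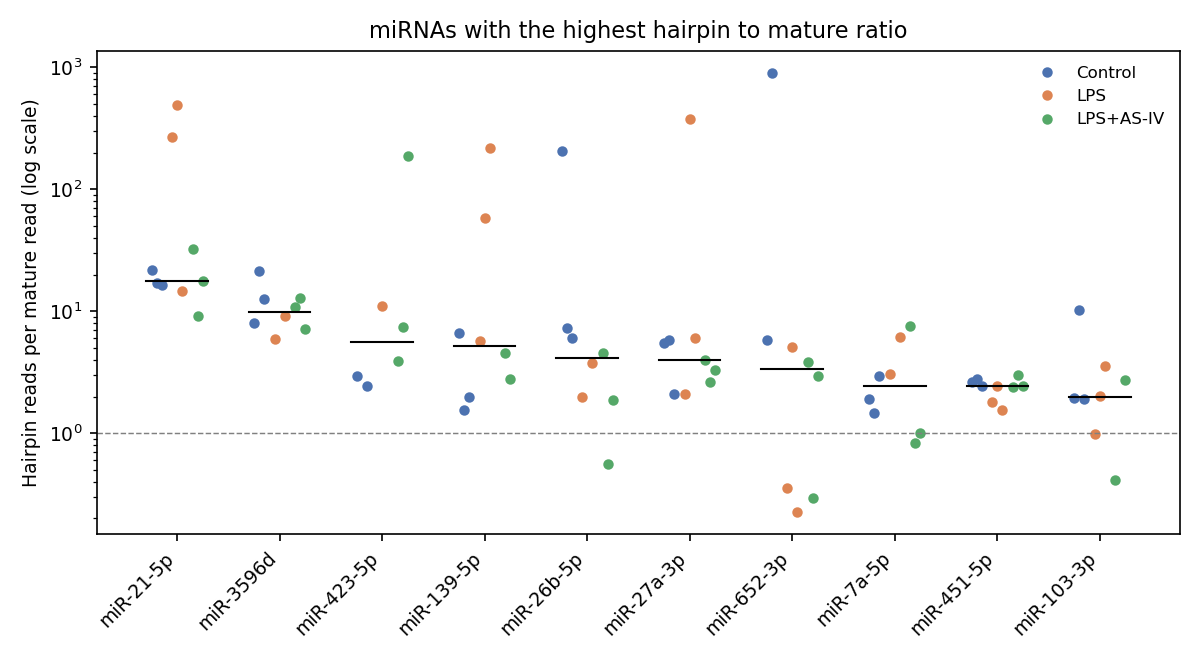
Hairpin reads per mature read on a log scale for the 10 miRNAs with the highest median ratio, with 1 point per library coloured by group and a bar at the median of the libraries with at least 1 read of each class. The miR-451-5p points lie close together (1.55 to 2.98), while those of miR-21-5p run from 9.09 to 492 and those of miR-652-3p from 0.225 to 904.

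The let-7 family, whose precursors are known targets of uridylation, had hairpin tags for 9 of 9 members. They held 13.2% ± 1.02 of hairpin reads (SD, n = 9) and 21.1% to 34.2% of mature reads per library, by name. With the names miR-3596a, miR-3596c and miR-3596d, which carry let-7a and let-7f tags, the shares were 17.1% to 21.7% of hairpin and 24.7% to 34.4% of mature reads. let-7b-5p gained U in 17378 reads, gained A in 6489 and lost U in 13792. No RefSeq hairpin was found for let-7b-5p, so whether its added bases are templated is not known. Added U was templated in let-7a-5p, let-7c-5p, let-7d-5p, let-7f-5p and let-7g-5p, and not in let-7e-5p, let-7i-5p and miR-98-5p. let-7i-5p gained A in 5330 reads, 16.4 per 100 exact mature reads, and U in 2539, neither of them templated. let-7g-5p instead mainly lost its last U, in 9413 reads against 331 that gained one, and let-7d-5p lost it in 6060. Of the other miRNAs known to be tailed, miR-26a-5p gained U, not templated, in 857 reads, 4.05 per 100 mature reads. miR-122-5p, the main liver miRNA, gained A, not templated, in 86 reads of 3 libraries, out of 222 hairpin reads. Its added U, in 88 reads of 4 libraries, was templated. miR-21-5p gained A in 26 reads and U in 19, neither templated, beside 26734 reads with the templated C.

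Treatment was compared by 7 measures of the class in 3 pairs of groups, 21 exact two-sided permutation tests in all. With 3 libraries on each side an exact permutation test cannot go below p = 0.1, and after Benjamini-Hochberg adjustment the smallest value was 0.7, so no difference passed. The hairpin share averaged 44.3% ± 1.81 for Control, 43.4% ± 0.901 for LPS and 43.1% ± 1.00 for LPS+AS-IV libraries (SD, n = 3 each). The exact permutation p was 0.5 between LPS and Control, 0.7 between LPS+AS-IV and LPS, and 0.4 between LPS+AS-IV and Control. The mean tag length was 22.2, 22.3 and 22.2 nt in the same order.

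Between LPS+AS-IV and LPS, 3 of the 7 measures did not overlap (42.9%), against 0 of 7 in each of the other comparisons. First, of the reads placed with at most 1 mismatch, those with a seed mismatch made up 0.401%, 0.638% and 0.478% in LPS+AS-IV and 0.813%, 0.992% and 0.833% in LPS libraries. The Control libraries, at 0.608%, 0.913% and 0.976%, overlapped both groups. Second, of the reads with a last-base mismatch, A ended 28.1%, 22.1% and 27.3% in LPS+AS-IV and 31.97%, 28.8% and 30.7% in LPS libraries, and Control ranged from 18.3% to 29.5%. Last, U ended 69.8%, 74.3% and 71.4% in LPS+AS-IV and 63.8%, 69.5% and 68.0% in LPS libraries. The A and U shares are parts of one total and do not count as separate results. Each of the 3 gave an exact permutation p of 0.1 and an adjusted p of 0.7. The A and U shares leave out miR-652-3p reads that stood under piRNA, although these tags also end in a mismatch. The tag with A added stood there in all 3 LPS+AS-IV libraries and in LPS libraries 1 and 3. The tag with U added stood there in LPS libraries 1 and 3 and in LPS+AS-IV library 2. Whether the A and U shares of the groups overlap with these reads counted was not tested.

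Per miRNA, hairpin counts were compared with edgeR's quasi-likelihood test for the 104 of 247 names that passed its filter on low counts, with p-values adjusted over those 104. No miRNA passed an adjusted p of 0.05 in any of the 3 comparisons (0% of those tested in each). Unadjusted p-values under 0.05 were found for 0 higher and 4 lower miRNAs between LPS and Control, where DESeq2 called 1. Both other comparisons had 1 higher and 1 lower, and DESeq2 called 2 between LPS+AS-IV and LPS and 0 between LPS+AS-IV and Control. The spread between libraries of a group was wide, with a biological coefficient of variation of 1.33. Among the 5 with the smallest p in LPS against Control, miR-451-5p had a log2 fold change of -0.76 ± 0.27 (SE, edgeR adjusted p = 0.64). miR-127-3p, an imprinted-locus miRNA, had -4.15 ± 1.74, and miR-411-5p -4.85 ± 2.18 (both edgeR adjusted p = 0.74). miR-17-5p had 74, 68 and 64 hairpin reads in Control, 0 in each LPS library, and 30, 1 and 1036 in LPS+AS-IV libraries. Its edgeR adjusted p was 0.64 in LPS against Control and 0.54 in LPS+AS-IV against LPS, which share the LPS libraries. In the let-7 family, 8 members were tested and 0 were called in each comparison, with a median log2 fold change in LPS against Control of 0.04 beside -0.04 over all 104.

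The hairpin to mature ratio was tested in the same way for 74 of 267 names, as the interaction of tag class and group. In LPS against Control 1 of 74 passed (1.35%), let-7a-5p, in LPS+AS-IV against LPS none (0%), and in LPS+AS-IV against Control 2 of 74 (2.70%), let-7a-5p and miR-3596a. At an unadjusted p under 0.05 LPS+AS-IV against LPS had 1 higher and 1 lower, and DESeq2 called 2. The calls followed the name that one sequence carried. The exact let-7a-5p sequence was assigned to mature let-7a-5p in the LPS and LPS+AS-IV libraries, with 1009 to 42928 reads, and to mature miR-3596a in the 3 Control libraries, where let-7a-5p had 0 mature reads. With each tag given to the same name in all libraries, 0 of the ratios passed in every comparison, the smallest edgeR adjusted p being 0.65, 0.92 and 0.89.

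Assignments also moved for miR-652-3p, a miRNA whose added-U tag was in hairpin tags of 5 libraries and a piRNA in the other 4. Counted under either assignment, the reads of this tag were 751, 694 and 2483 (Control), 509, 2687 and 1691 (LPS), and 156, 994 and 13460 (LPS+AS-IV). Under hairpin alone it had 0 in Control library 3, LPS libraries 1 and 3, and LPS+AS-IV library 2. Its sequence is shown because its hairpin reads alone would give absence in those libraries.
miR-652-3p with T added, not templated: aatggcgccactagggttgtgT
All 9964 hairpin-tag reads found under piRNA names belonged to miR-652-3p, and a further 23 reads of hairpin-tag sequences stood under mature and 8 under Rfam names.

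Abundant hairpin tags were also missing from single libraries under any assignment. From the median share of a tag in the other 8 libraries, 50 or more reads could be expected in 771 cases of a tag in a library. In 93 of these, with 69 distinct tags, at most 2 reads were present. LPS+AS-IV library 3 had 39 such cases among 141, LPS library 2 had 16 among 95, and LPS+AS-IV library 1 had 0 among 38. For instance, a let-7f-5p tag had 2 reads in LPS+AS-IV library 3 where the others gave 1805, and a miR-146a-5p tag had 0 reads in LPS library 2 where they gave 241.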

How the data were processed

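Small RNA of macrophage exosomes was sequenced on a BGISEQ-500, per the labels' protocols, in 9 libraries of 3 groups. The deposited values are counts of reads per tag, per the file headers, beside an assignment and a score that the file headers describe as a mismatch number or a family score. Bowtie2 and the build Rnor_6.0 stand in the submitters' processing notes without a role, and for the miRNA database and its release nothing was stated in the labels or headers. The table of the whole series was not used here.

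Tags were aligned without gaps to RefSeq mature miRNAs and hairpins (GRCr8), which matched 226 and 203 of 247 names by name. As the builds differ, no coordinates are given. Shares were computed per library and compared by exact permutation tests (scipy 1.17.1). Counts per name were tested with edgeR 4.0.16 (TMM, filter on low counts, all 9 libraries in 1 fit, Benjamini-Hochberg adjustment), and ratios with both classes of each library in 1 fit with library as a term. Scripts were tested on simulated data. Alternatives were DESeq2 1.42.0, other normalization, no filter, 1 name per tag, a replicate block, leaving out each library, each tag counted once, a minimum of 10 reads, no top tag, and mature tags as the reference. Other computing used Python 3.11.15, R 4.3.3 and matplotlib 3.10.9.

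The named miRNAs were the 10 with the highest median ratio (at least 10 reads of each class in at least 6 libraries), the 10 with the highest mean share of hairpin reads, those past an adjusted p of 0.05 or else the 5 with the smallest p, and up to 4 of each list by reads. Tags with a recurrent inner change, the A-to-G tags of LPS library 3, and miR-652-3p's piRNA tags were chosen after their values were seen. The members and lists were chosen with earlier results of these data known.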

Additional observations from a re-analysis of the deposited data

How the results depend on the processing

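Each class measure was recomputed as a difference in percentage points (nt for length), first group minus second. With each distinct tag counted once, the direction turned for the hairpin share in LPS against Control (4.02) and LPS+AS-IV against Control (1.45), the last-base mismatch share in LPS against Control (-3.60) and LPS+AS-IV against LPS (2.14), the seed share in LPS+AS-IV against Control (0.216), the U share in LPS+AS-IV against LPS (-1.03) and against Control (-9.28), and the A-to-G share in the 3 comparisons (-0.876, 3.23 and 2.35). Without the most abundant tag the hairpin share in LPS+AS-IV against LPS was 0.257. With tags of at least 10 reads the seed share in LPS against Control was -0.120. With mature tags as the reference, the last-base share in LPS against Control was -0.103, and in LPS+AS-IV against Control the U share was -0.373 and the A-to-G share 0.0180. The cause was not tested.

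Leaving out 1 library at a time, ranges that crossed 0 were, for LPS against Control, -0.0654 to 0.118 (seed share), -3.85 to 13.1 (A-to-G share, negative without LPS library 3) and -0.00324 to 0.153 nt. For LPS+AS-IV against LPS they were -0.763 to 0.259 (hairpin share) and -0.210 to 0.0297 nt. For LPS+AS-IV against Control they were -1.89 to 1.02 (last-base share), -2.98 to 2.61 (A share), -1.82 to 4.08 (U share) and -0.143 to 0.0965 nt. The seed, A and U differences of LPS+AS-IV against LPS kept their direction, at -0.440 to -0.318, -5.83 to -2.81 and 3.11 to 5.94. These ranges use the deposited assignments. The A and U shares were not recomputed with the miR-652-3p tags counted under either hairpin or piRNA.

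For hairpin counts per miRNA, DESeq2 called 1 in LPS against Control (miR-17-5p) and 2 in LPS+AS-IV against LPS (miR-17-5p, miR-362-5p). Leaving out a library gave 0 to 2 calls in LPS against Control: 2 without LPS library 1 (miR-127-3p, miR-411-5p) and 1 without LPS library 2 (miR-652-3p). In LPS+AS-IV against LPS it gave 0 to 1: 1 without LPS library 1 (miR-411-5p) and 1 without LPS library 2 (miR-652-3p). In LPS libraries 1 and 3 the added-U tag of miR-652-3p had 0 hairpin reads and stood under piRNA (509 and 1691 reads). The miR-652-3p calls were not repeated with this tag counted under either assignment. The log2 fold change of miR-122-5p in LPS+AS-IV against Control ran from -0.51, without LPS+AS-IV library 1, to 5.92.

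For the ratios, LPS against Control had 3 calls with DESeq2, 4 without a filter, 0 with 1 name per tag and 1 to 2 without 1 library (miR-21-5p joined without LPS library 3). LPS+AS-IV against LPS had 2 with DESeq2, 3 without a filter and 0 to 1 without 1 library (miR-21-5p without LPS library 3). LPS+AS-IV against Control had 3 without a filter (let-7a-5p, miR-3596a and miR-652-3p) and 0 with 1 name per tag. It had 1 with TMM for each column, 1 with the replicate block and 1 without any 1 library, miR-3596a being lost in these. For miR-652-3p, the ratio was not refitted with its added-U tag counted under either hairpin or piRNA. With 1 name per tag the log2 change of let-7a-5p was 1.26 in LPS against Control and 1.86 in LPS+AS-IV against Control, and that of miR-3596a was -3.51 in the latter.

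Same-numbered libraries had weak correlations of their deviations, with r from -0.04 to 0.19 over 9 pairs, 2 of them over 0.1. Pairs with different numbers had r from -0.30 to 0.16, and 3 of 9 libraries correlated best with their own number. With 3 libraries per group these values cannot decide whether the numbers pair the libraries. The replicate block changed no other call. Opposite-strand tags left out, or hairpin sequences counted under any assignment, both chosen after seeing the data, kept the direction of the hairpin share in the 3 comparisons. Depth limits rare tags: 39.4% to 53.3% of the hairpin tags in a library had 1 read, and 48.4% to 82.9% of those with a seed mismatch.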
